A study of Mus musculus with 12 samples.

Results

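Serpins are a family of proteins that fold alike, most of which inhibit serine or cysteine proteases, while some carry hormones or chaperone other proteins. An inhibitory serpin offers an exposed loop as bait, and when the protease cuts it the serpin springs into a new shape and traps the enzyme. In the lung they are known for holding in check neutrophil elastase, the plasminogen activators and the clotting and complement enzymes, and Serpinh1 (the collagen chaperone Hsp47) is needed to fold collagen. The mouse genome holds expanded groups of near-identical copies, above all of the antitrypsin (Serpina1), antichymotrypsin (Serpina3) and clade B genes. The 53 transcript clusters described here are those of the 23410 clusters with a gene symbol whose symbols all begin with Serpin. Of these, 48 carry 1 symbol and 5 carry several. The latter are called mixed: Serpina1 mixed A and B each stand for Serpina1a to Serpina1e together, and Serpinb9 mixed A, B and C for Serpinb9d to Serpinb9g. By family, 4 clusters are antitrypsins, 3 belong to the Serpina3 group, 10 are other clade A members, 27 are clade B, 2 are clades C and D, 2 are clade F, 2 are clade I, and 1 each is in clades E, G and H.

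RNA of the left lung was measured on Affymetrix MoGene 1.0ST arrays, 1 array for each of 12 mice, 5 days after intratracheal PBS or bleomycin (0.075 U, both in 30 µL). All mice were on a C57/129S background and were labelled as females of 2 months. They carried a floxed gene for Fra-1, an AP-1 transcription factor, and the Fra-1-/- mice also carried Meox2-Cre, which is active in the embryo but not in extra-embryonic tissue, while the Fra-1+/+ mice had no Cre. The 4 groups of 3 mice were Fra-1+/+ with PBS (WTC), Fra-1+/+ with bleomycin (WTT), Fra-1-/- with PBS (KOC) and Fra-1-/- with bleomycin (KOT), and each mouse is named by its group and animal number. The design asks which genes respond early to bleomycin and whether that response depends on Fra-1. Values are log2 expression, in which a difference of 1 is a doubling, and since probes differ no level is compared between clusters. A cluster passed the test, and is said to have risen or fallen, at a Benjamini-Hochberg adjusted p under 0.05 in a limma model over all clusters with a symbol, and SE is the standard error of a log2 difference.

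The 12 arrays were alike, with medians between 7.14 and 7.22 and mean correlations within a group of 0.987 to 0.991. Fosl1, which encodes Fra-1, lay between 6.37 and 6.86 in WTC and between 6.26 and 6.68 in KOC, and it rose with bleomycin to 7.81 to 8.32 in WTT and to 7.28 to 7.33 in KOT. Whether its probes lie in the deleted part is not stated, so the deletion was not checked by them. In all 12 arrays Xist lay at 4.47 to 4.94 and the Y-linked Eif2s3y at 8.52 to 8.93, which goes against the label female. The mean level of 8 lung epithelial markers was 12.51 to 12.56 in WTC, 11.93 to 12.22 in WTT, 12.56 to 12.58 in KOC and 12.09 to 12.35 in KOT. With bleomycin 4 of the 8 fell in Fra-1+/+ and 3 in Fra-1-/- mice, beside 11.3% and 7.98% of all clusters tested. In whole lung, a change in the number of cells that make a serpin and a change in RNA per cell cannot be told apart.

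The serpins as a family did not respond as one. In Fra-1+/+ mice 8 of the 53 clusters passed the test with bleomycin, 5 higher and 3 lower, where 21.5% of all clusters tested were called, 10.2% higher and 11.3% lower. In Fra-1-/- mice 7 passed, 5 higher and 2 lower, against a background of 15.4%, 7.42% higher and 7.98% lower. The PBS and bleomycin mice did not overlap in 12 clusters of Fra-1+/+ mice, beside 35.7% of all clusters, and in 14 of Fra-1-/- mice, beside 35.4%. The median response of the 53 clusters was 0.03 in Fra-1+/+ and 0.03 in Fra-1-/- mice, beside 0.02 and 0.02 over all 23410 clusters. In 42 clusters the log2 fold change was under 0.5 in size in both genotypes. Serpina3n, Serpinb9b, Serpinb2 and Serpinb8, 4 clusters in all, rose in both, beside 5.61% of all clusters, and 11 clusters passed in at least 1 genotype, beside 25%. Low signal was common, with 33 clusters under 6 in every group mean, and 2 of the 11 that passed were among them. By the local-pooled-error (LPE) test of the study's methods, which takes its error from clusters of like intensity and has a threshold of 0.01, 5 clusters passed in Fra-1+/+ mice, beside 7.93% of all clusters, and 5 in Fra-1-/- mice, beside 8.08%.

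**Figure D1:**
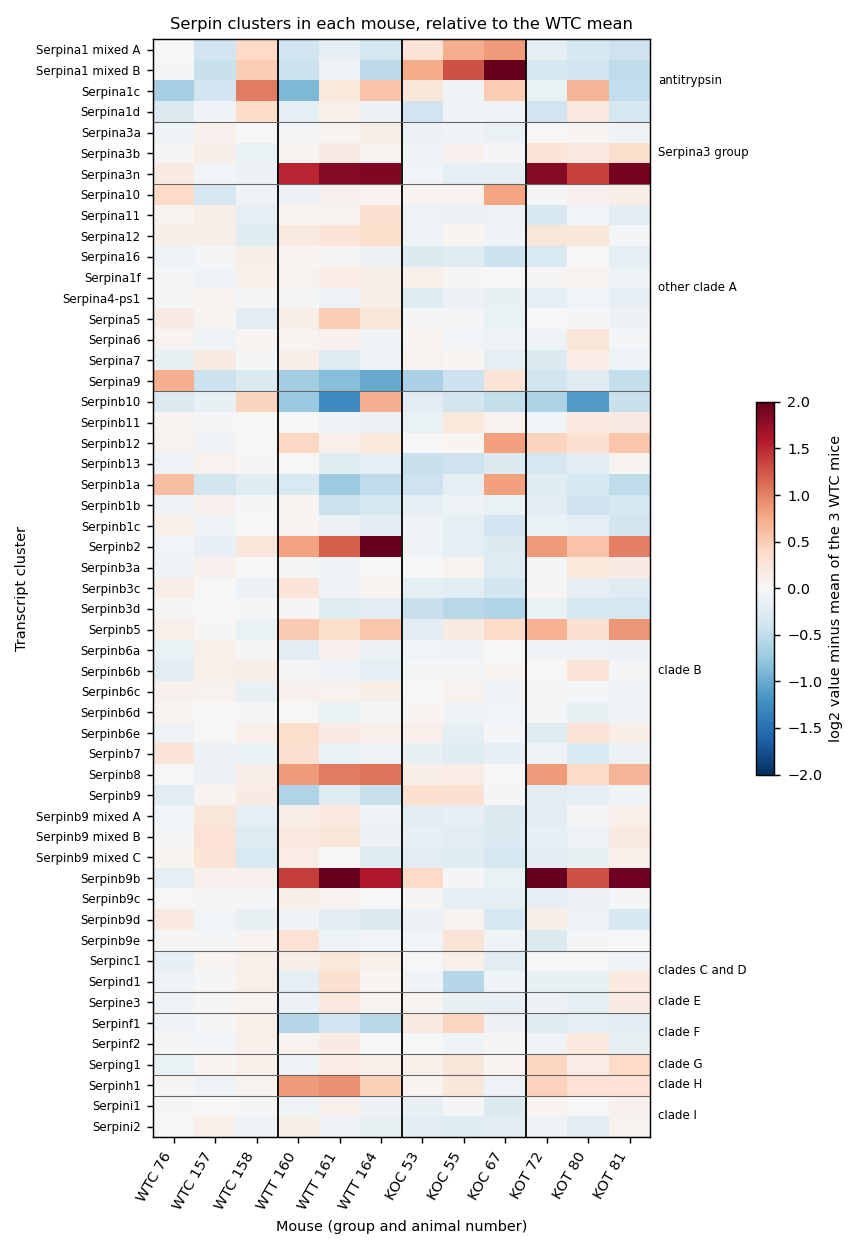
Log2 value of each of the 53 serpin clusters (rows, grouped by family) in each of the 12 mice (columns, by group), minus the mean of the 3 WTC mice. Red is higher and blue lower, and the colours end at a difference of 2. Serpina3n, Serpinb9b, Serpinb2 and Serpinb8 stand out in both bleomycin groups, and Serpina1 mixed B in KOC.

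Fra-1 acts by pairing with a Jun protein on the AP-1 element, so the promoters of the serpins, responding or not, were read for that element. They were also read for the STAT element that acute-phase genes often use and for the heat shock element. RefSeq windows of 300 bases on GRCm38.p6, from 250 before to 50 after the start, were found for 46 of the 53 symbols. The AP-1 element was searched as TGANTCA, the STAT element as TTCNNNGAA and the heat shock element as GAANNTTC, each on both strands, and matches of different patterns may share bases. AP-1 letters were found in 11 of the 46 serpins (23.9%), beside 8.97% of 27025 genes with such a window. STAT letters were found in 5 (10.9%, beside 9.55%) and heat shock letters in 5 (10.9%, beside 9.04%). Of the 11 serpins with AP-1 letters, 4 are antitrypsins with near-identical promoters (91.4% to 94.9% identical in pairs), so they are not 4 separate instances. The others are Serpinb2 and Serpinb8, which rose with bleomycin, and Serpinb5, Serpinb7, Serpinb10, Serpinb11 and Serpinb12, which passed in no comparison. All of these clade B genes lie near each other on chromosome 1, between bases 106860925 and 107590055, so they may not be separate instances either. The share of 23.9% is therefore not a share of independent genes. A match is a description of the letters only.

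The antitrypsin promoters are shown because Serpina1 mixed A and B, which read these genes together, were the serpin clusters with the largest differences between the PBS groups. The stretches below start 10 bases before the AP-1 letters, which are in capitals and lie 229 to 240 bases before the start. All are on the minus strand of chromosome 12, at chr12:103863803-103863862 (Serpina1a), chr12:103738380-103738439 (Serpina1b), chr12:103905140-103905199 (Serpina1c) and chr12:103773813-103773872 (Serpina1d).
Serpina1a: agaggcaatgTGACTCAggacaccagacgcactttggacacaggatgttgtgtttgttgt
Serpina1b: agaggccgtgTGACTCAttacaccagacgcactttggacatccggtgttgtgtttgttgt
Serpina1c: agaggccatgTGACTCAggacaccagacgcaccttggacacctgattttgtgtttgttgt
Serpina1d: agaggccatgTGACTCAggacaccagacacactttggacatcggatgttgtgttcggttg
The window of Serpina1e begins inside this stretch of its copies and so does not cover these letters.

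Whole windows of 3 members that rose with bleomycin follow, all on the plus strand. Serpinb8 (chr1:107589756-107590055) has AP-1 letters 23 bases before and 14 bases after the start. Serpinb2 (chr1:107511173-107511472) has AP-1 letters 94 bases before the start and STAT letters 11 bases after it. From a second RefSeq start of Serpinb2 (window chr1:107511260-107511559) the same letters lie 181 and 77 bases before the start. Serpina3n (chr12:104406458-104406757), which rose most of the 53 clusters in both genotypes, has none of the 3 patterns in this window. Capitals mark the matches.
Serpinb8: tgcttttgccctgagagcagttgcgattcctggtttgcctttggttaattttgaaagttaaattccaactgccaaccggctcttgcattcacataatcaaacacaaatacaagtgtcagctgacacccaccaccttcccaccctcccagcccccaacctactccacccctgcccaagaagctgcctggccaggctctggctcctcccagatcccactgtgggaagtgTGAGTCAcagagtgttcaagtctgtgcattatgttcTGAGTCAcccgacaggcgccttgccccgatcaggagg
Serpinb2: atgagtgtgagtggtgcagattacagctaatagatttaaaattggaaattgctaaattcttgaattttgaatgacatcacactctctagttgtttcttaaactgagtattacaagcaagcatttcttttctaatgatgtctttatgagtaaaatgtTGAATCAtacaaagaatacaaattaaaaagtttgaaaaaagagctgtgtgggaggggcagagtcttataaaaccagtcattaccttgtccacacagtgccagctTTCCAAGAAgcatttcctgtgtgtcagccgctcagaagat
Serpina3n: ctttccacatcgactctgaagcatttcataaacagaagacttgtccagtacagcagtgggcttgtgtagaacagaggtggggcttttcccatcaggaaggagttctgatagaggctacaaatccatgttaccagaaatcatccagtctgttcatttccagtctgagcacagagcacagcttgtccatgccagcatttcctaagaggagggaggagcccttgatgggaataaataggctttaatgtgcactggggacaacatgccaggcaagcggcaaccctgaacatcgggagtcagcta
The windows of Serpinb9b, Serpinh1, Serpinf1, Serpinb9 and Serpina3b also hold none of the 3 patterns.

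Serpina3n, an acute-phase inhibitor of chymotrypsin-like proteases, was the largest riser of the 53 clusters in both genotypes. It read 11.54, 11.31 and 11.25 in WTC and 12.89, 13.21 and 13.24 in WTT. In the Fra-1-/- mice it read 11.31, 11.17 and 11.18 with PBS and 13.20, 12.73 and 13.29 with bleomycin. The PBS and bleomycin mice were far apart in both genotypes, and the genotypes overlapped under either treatment. Fra-1+/+ mice showed a 3.35-fold rise (log2 1.74, SE 0.15, adjusted p = 8.2e-05) and Fra-1-/- mice a 3.61-fold rise (log2 1.85, SE 0.15, adjusted p = 1.01e-04). The responses differed by 0.11 (95% interval -0.34 to 0.56). Serpina3b, another copy of the group, is at low signal, with 5.06, 5.22 and 5.13 in KOC and 5.41, 5.34 and 5.49 in KOT. It rose by 0.28 in Fra-1-/- mice (SE 0.08, adjusted p = 0.041), a small change that did not pass by the LPE test (adjusted p = 0.422), nor without any of the KOC mice or without WTC 76, KOT 72 or KOT 81, at 0.24 to 0.32. In Fra-1+/+ mice its value was 0.09 (adjusted p = 0.496).

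Another cluster, without a symbol in the probe table and so outside the 53, is named Serpina3m in the study's own listings. It was listed there for its values on these arrays, so it is no independent evidence. Its values, from a fit to all 35556 clusters, were 7.62, 8.72 and 8.46 in WTC, 9.74, 9.99 and 10.65 in WTT, 7.27, 7.05 and 7.32 in KOC, and 10.05, 9.25 and 10.42 in KOT. With bleomycin, Fra-1+/+ mice rose by 1.86 (SE 0.35, adjusted p = 0.00681) and Fra-1-/- mice by 2.69 (SE 0.35, adjusted p = 0.00225). All KOC mice lay below all WTC mice, but the difference of -1.06 did not pass by limma (adjusted p = 0.461) and passed by the LPE test (adjusted p = 1.67e-06). Copies of the Serpina3 group share sequence, so probes of these clusters may read more than 1 copy.

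The clade B serpins mostly stay inside cells, where they inhibit leukocyte proteases, and 3 of the 27 clusters rose in both genotypes, beside 5.61% of all clusters. Serpinb9b, a copy of the granzyme B inhibitor group, read 6.42, 6.69 and 6.68 in WTC and 7.99, 8.80 and 8.19 in WTT. It read 6.99, 6.57 and 6.47 in KOC and 8.72, 7.87 and 8.55 in KOT. The 2 treatments were clearly apart in each genotype, and the genotypes overlapped. Fra-1+/+ mice rose 3.32-fold (log2 1.73, SE 0.24, adjusted p = 8.14e-04) and Fra-1-/- mice 3.26-fold (log2 1.70, SE 0.24, adjusted p = 0.00138). The responses differed by -0.02 (95% interval -0.77 to 0.72). Serpinb9 itself, the granzyme B inhibitor that protects cytotoxic cells from their own enzyme, went the other way. It read 9.72, 9.99 and 10.10 in WTC and 9.34, 9.69 and 9.49 in WTT, a fall of 0.43 on the log2 scale (SE 0.13, adjusted p = 0.0309). The gap between the groups was narrow, from 9.69 in WTT to 9.72 in WTC. Without WTC 157, WTC 158, WTT 160 or WTT 164 it did not pass, at -0.41 to -0.35. In KOC it read 10.26, 10.24 and 9.90 and in KOT 9.71, 9.76 and 9.85, a difference of -0.36 that did not pass (adjusted p = 0.0804) and that passed without KOC 67 (-0.47, adjusted p = 0.0309) and with array weights (-0.44, adjusted p = 0.00523). Of the 8 cytotoxic lymphocyte markers, 2 fell in Fra-1+/+ and 0 in Fra-1-/- mice, beside 11.3% and 7.98% of all clusters. The mean level of these markers was 7.35 to 8.03 in WTC, 7.06 to 7.70 in WTT, 7.78 to 7.88 in KOC and 7.63 to 7.86 in KOT. Their part in the Serpinb9 value was not tested. The clusters of the other Serpinb9 copies (mixed A, B and C, and those of Serpinb9c, Serpinb9d and Serpinb9e) passed in neither genotype.

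Serpinb2, a clade B serpin of macrophages and epithelium that can inhibit urokinase, read 5.49, 5.38 and 5.77 in WTC and 6.35, 6.76 and 7.84 in WTT. It read 5.47, 5.34 and 5.28 in KOC and 6.41, 6.12 and 6.55 in KOT. No bleomycin mouse overlapped its PBS group, and WTT 164 stood highest of all 12. Fra-1+/+ mice rose 2.71-fold (log2 1.44, SE 0.29, adjusted p = 0.00502) and Fra-1-/- mice 2.00-fold (log2 1.00, SE 0.29, adjusted p = 0.037). Without WTT 164 the Fra-1+/+ rise was 1.01 (adjusted p = 0.0232). The Fra-1-/- call was lost without any single KOC mouse, without KOT 72 or without KOT 81, at 0.90 to 1.05 with adjusted p of 0.0794 to 0.128. The responses differed by -0.44 (95% interval -1.33 to 0.45), and this became -0.0098 without WTT 164. WTT 164 was also highest in the mean level of 10 neutrophil markers, which spread from 8.52 to 10.16 over WTT and from 7.92 to 9.11 over KOT, beside 8.06 to 8.19 in WTC and 8.11 to 8.43 in KOC. Of these 10 markers 2 rose in Fra-1+/+ and 1 in Fra-1-/- mice, beside 10.2% and 7.42% of all clusters. The part of neutrophils in the Serpinb2 values was not tested.

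Serpinb8, an intracellular inhibitor of furin-like proteases, read 7.31, 7.20 and 7.45 in WTC and 8.17, 8.35 and 8.40 in WTT. It read 7.46, 7.47 and 7.32 in KOC and 8.17, 7.71 and 8.01 in KOT. All bleomycin mice lay above the PBS mice of their genotype. With bleomycin the genotypes overlapped, since KOT 72 (8.175) lay just above WTT 160 (8.171), the lowest WTT mouse. Fra-1+/+ mice rose 1.98-fold (log2 0.99, SE 0.12, adjusted p = 4.1e-04) and Fra-1-/- mice 1.46-fold (log2 0.55, SE 0.12, adjusted p = 0.00932). By the LPE test the second of these did not pass (adjusted p = 0.0377). The difference of the responses was -0.44 (SE 0.17, 95% interval -0.80 to -0.08) and did not pass over all clusters (adjusted p = 0.941 by limma).

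The remaining clade B clusters passed in neither genotype. Serpinb1a, the elastase inhibitor of neutrophils and monocytes, read 9.31, 8.35 and 8.47 in WTC, 8.41, 7.98 and 8.20 in WTT, 8.30, 8.53 and 9.53 in KOC and 8.48, 8.36 and 8.20 in KOT. A single high mouse in each PBS group, WTC 76 and KOC 67, set most of its values of -0.52 (adjusted p = 0.266) and -0.44 (adjusted p = 0.382). Without those mice the values ran down to -0.21 and -0.07. Serpinb10 ranged from 5.86 to 7.84 within WTT alone. Serpinb5 (maspin), at low signal, had values of 0.48 (adjusted p = 0.0616) in Fra-1+/+ and 0.52 (adjusted p = 0.0555) in Fra-1-/- mice. Both missed the threshold narrowly. All WTT mice lay above all WTC mice, while KOT and KOC overlapped.

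**Figure D2:**
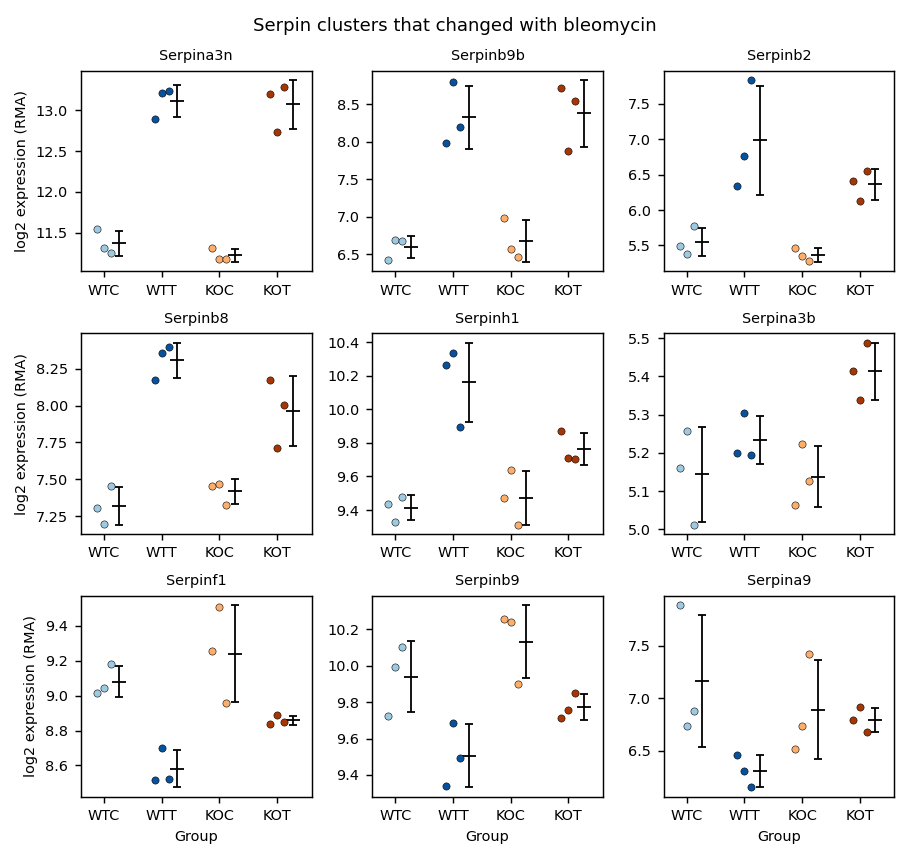
Log2 expression of 9 of the 11 serpin clusters that passed in at least 1 genotype, in each of the 3 mice of each group (points), with the mean and SD beside them. The vertical axes differ between panels and do not start at 0. The bleomycin mice stand above the PBS mice of both genotypes in Serpina3n, Serpinb9b, Serpinb2, Serpinb8 and, narrowly, Serpinh1. In Serpinf1 they lie narrowly below them, while Serpina9 in WTC rests on 1 high mouse.

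Serpinh1, the chaperone that binds procollagen in the endoplasmic reticulum, read 9.43, 9.33 and 9.48 in WTC and 10.26, 10.33 and 9.89 in WTT. It read 9.47, 9.64 and 9.31 in KOC and 9.87, 9.71 and 9.71 in KOT. All 3 KOT mice lay below all 3 WTT mice, although above their own PBS group. Fra-1+/+ mice rose 1.68-fold (log2 0.75, SE 0.12, adjusted p = 0.00152), while the value of 0.29 in Fra-1-/- mice did not pass (SE 0.12, adjusted p = 0.132). With array weights it passed (0.30, adjusted p = 0.0348). The difference of the responses was -0.46 (SE 0.17, 95% interval -0.83 to -0.09), and did not pass over all clusters (adjusted p = 0.933 by limma).

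The 8 collagens listed as clients of Serpinh1 rose in both genotypes, 8 of 8 in each, beside 10.2% and 7.42% of all clusters. Their median response was 1.08 in Fra-1+/+ and 0.65 in Fra-1-/- mice. Col1a1 rose by 1.45 and 0.99 and Col3a1 by 1.48 and 0.92, in that order. The median difference of the responses over the 8 collagens was -0.45, beside -0.01 over all clusters, and 0 of the 8 passed for it. Among 7 fibroblast markers, which include Col1a1 and Col1a2, 2 rose and 2 fell in both genotypes. Of all clusters, 11.3% fell in Fra-1+/+ and 7.98% in Fra-1-/- mice. The mean level of these markers was 10.65 to 10.72 in WTC, 10.63 to 10.77 in WTT, 10.72 to 10.9 in KOC and 10.82 to 10.88 in KOT. For KOT against WTT, 1 of the 7 passed, higher in KOT.

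Serpinf1 (pigment epithelium-derived factor, a secreted non-inhibitory serpin that restrains vessel growth) fell in Fra-1+/+ mice. It read 9.01, 9.04 and 9.18 in WTC and 8.52, 8.70 and 8.52 in WTT, a fall of 0.50 on the log2 scale (SE 0.12, adjusted p = 0.012) or 1.41-fold, which the LPE test did not call (adjusted p = 0.0578). It read 9.26, 9.51 and 8.96 in KOC and 8.84, 8.89 and 8.85 in KOT. The Fra-1-/- mice did not overlap either, and their value of -0.38 missed the threshold narrowly (adjusted p = 0.0503). It passed without KOC 67 (-0.52, adjusted p = 0.00776), with array weights (-0.46, adjusted p = 0.00385), with trended moderation, with equal array medians and when clusters under 6 in every group mean were left out. Without KOC 55 it was -0.25 (adjusted p = 0.177). Serpinf2, the plasmin inhibitor of plasma, stayed between 6.44 and 6.79 in all 12 mice and passed in no comparison.

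Serping1, the inhibitor of the complement C1 proteases, read 12.16, 12.34 and 12.40 in WTC and 12.22, 12.44 and 12.40 in WTT. It read 12.40, 12.53 and 12.34 in KOC and 12.72, 12.45 and 12.69 in KOT. The bleomycin responses of 0.06 and 0.20 did not pass. All KOT mice lay above all WTT mice, narrowly, with a difference of 0.27 (adjusted p = 0.388 by limma). Of 6 complement proteases listed, 4 were measured and 0 changed in either genotype, where 25% of all clusters passed in at least 1. Serpinc1 (antithrombin) stayed between 5.90 and 6.35 and Serpini1 (neuroserpin) between 4.81 and 5.19, and neither passed, nor did Serpind1, Serpine3 or Serpini2.

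The other clade A clusters include hormone carriers and inhibitors of protein C and factor X. In at least 1 genotype 1 of the 10 passed, beside 25% of all clusters. Serpina9, a serpin of germinal-centre B cells, read 7.89, 6.74 and 6.88 in WTC and 6.46, 6.31 and 6.15 in WTT, and 6.52, 6.74 and 7.42 in KOC and 6.79, 6.92 and 6.68 in KOT. WTC 76 lay 1 unit above its group. The fall of 0.86 (SE 0.28, adjusted p = 0.048) in Fra-1+/+ mice was -0.50 without WTC 76 (adjusted p = 0.137), and the call was also lost without WTC 158, without any single WTT mouse, and without KOC 55 or any single KOT mouse (adjusted p between 0.0539 and 0.136). In Fra-1-/- mice the value was -0.09.

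**Figure D3:**
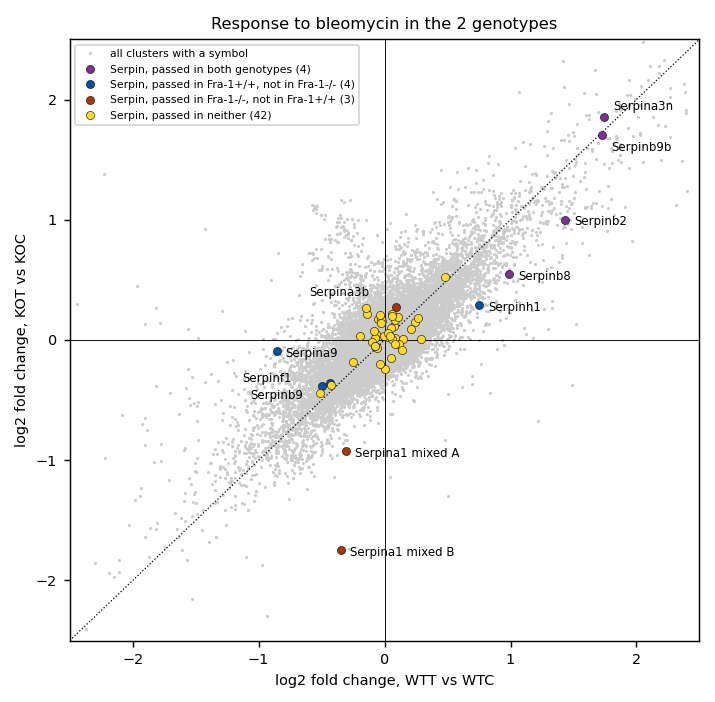
Log2 fold change with bleomycin in Fra-1+/+ mice (horizontal, WTT minus WTC) against that in Fra-1-/- mice (vertical, KOT minus KOC) for all clusters with a symbol (grey) and the 53 serpin clusters, coloured by the genotype in which they passed. The dotted line marks equal responses, and clusters beyond 2.5 in size lie outside the frame. Serpina3n and Serpinb9b lie near the line, Serpinb8 and Serpinh1 below it, and Serpina1 mixed A and B far below it.

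The antitrypsins, inhibitors of neutrophil elastase, are made mainly in the liver, and Serpina1 mixed A and B were the serpin clusters with the largest differences between the PBS groups. Serpina1 mixed B read 7.23, 6.82 and 7.76 in WTC and 8.01, 8.54 and 9.30 in KOC. With bleomycin it read 6.84, 7.20 and 6.74 in WTT and 6.95, 6.89 and 6.76 in KOT. Every KOC mouse was above every other mouse of the series, and the other 3 groups overlapped. With bleomycin, Fra-1-/- mice fell by 1.75 on the log2 scale, or 3.36-fold (SE 0.29, adjusted p = 0.00281), and the value in Fra-1+/+ mice was -0.35 (adjusted p = 0.456). KOC exceeded WTC by 1.35 (SE 0.29), which did not pass over all clusters by limma (adjusted p = 0.317) and passed by the LPE test (adjusted p = 1.16e-08). Leaving out 1 mouse at a time gave 1.00 to 1.65 for this difference. The difference of the responses was -1.40 (SE 0.41, 95% interval -2.31 to -0.50), with an adjusted p of 0.845 by limma. The study's listings carry this cluster as Serpina1e, chosen there on these arrays, so that listing is no independent evidence.

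Serpina1 mixed A reads the same 5 genes and is not a separate observation, since the 2 clusters correlated at 0.973 over the 12 mice. It read 5.18, 4.81 and 5.60 in WTC, 4.79, 5.03 and 4.84 in WTT, 5.47, 5.92 and 6.05 in KOC, and 5.01, 4.88 and 4.78 in KOT. KOC was again the highest group, although KOC 53 lay within the range of WTC. With bleomycin, Fra-1-/- mice fell by 0.93 (SE 0.19, adjusted p = 0.00701), and the KOC minus WTC value was 0.62 (adjusted p = 0.414 by limma, 0.00647 by LPE). Serpina1c and Serpina1d, read by clusters of their own, did not follow. Both were at low signal, under 6 in every group mean, as was Serpina1 mixed A, so a change in these copies could be missed. Serpina1d lay between 5.14 and 5.90 in all mice and overlapped between all groups. Serpina1c spread from 3.98 to 5.68 within WTC and from 3.75 to 5.22 within WTT, and passed in no comparison.

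A cluster without a symbol in the probe table carries the name Serpina1b in the study's listings, again chosen there on these arrays and so no independent evidence. It read 5.60, 4.85 and 5.59 in WTC, 4.97, 5.18 and 4.97 in WTT, 7.68, 7.80 and 8.47 in KOC, and 5.08, 5.26 and 4.84 in KOT. The 3 KOC mice stood more than 2 units above all 9 others. In a fit to all 35556 clusters, KOC exceeded WTC by 2.64 (SE 0.24, adjusted p = 0.00535), and with bleomycin Fra-1-/- mice fell by 2.92 (SE 0.24, adjusted p = 3.78e-04), with -0.30 in Fra-1+/+ mice (adjusted p = 0.478). With only the 6 PBS arrays in the fit the KOC minus WTC call was lost (adjusted p = 0.264). The difference of the responses was -2.62 (SE 0.33, adjusted p = 0.127). KOT and WTT differed by 0.02.

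Markers of hepatocytes were not raised in KOC. Of the 11 clusters of 10 hepatocyte genes, 0 passed in any comparison, and their mean level was 5.76 to 5.96 in KOC and 5.997 to 6.18 in WTC. The 1 mouse with a raised albumin was WTC 158, with Alb at 7.55 where the other mice lay between 5.78 and 6.48. That mouse was also the highest of all 12 in Serpina1c (5.68) and Serpina1d (5.90) and the highest of WTC in Serpina1 mixed A and B, and the part of liver RNA in these values was not tested.

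**Figure D4:**
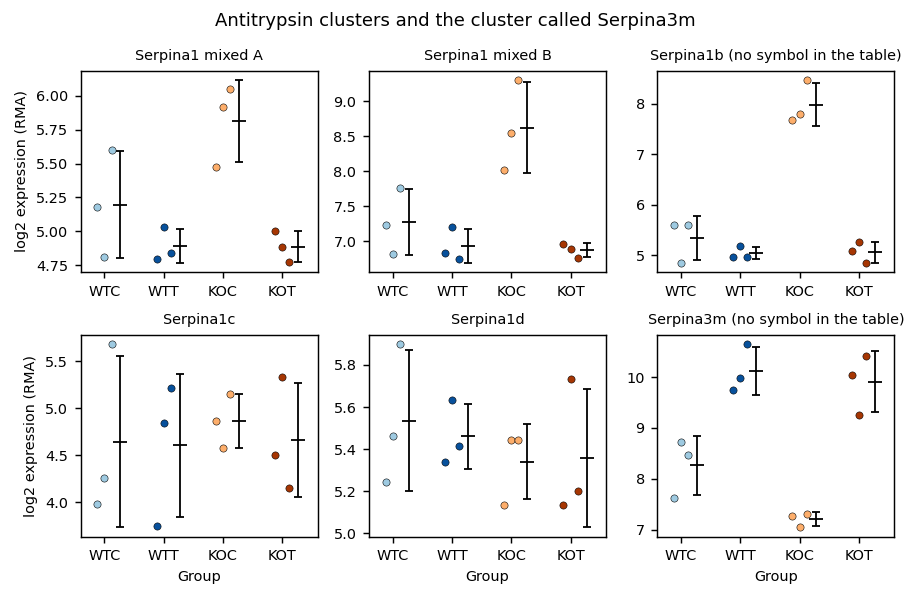
Log2 expression in each mouse (points) with the mean and SD of each group of 3, for the 4 antitrypsin clusters and for the clusters that the study's listings call Serpina1b and Serpina3m. The vertical axes differ between panels and do not start at 0. The 3 KOC mice lie above all others in Serpina1 mixed B and Serpina1b and overlap WTC in Serpina1 mixed A, and of these only Serpina1b passed by limma for KOC against WTC. The groups overlap in Serpina1c and Serpina1d.

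Between the genotypes under the same treatment, 0 of the 53 clusters passed with PBS, where 0.0128% of all clusters tested were called, and 0 with bleomycin, where 0.0427% were called. At an unadjusted p under 0.05 there were 7 with PBS, beside 9.82% of all clusters, and 7 with bleomycin, beside 10.6%. By the LPE test 2 passed with PBS, Serpina1 mixed A and B, beside 1.79%, and 0 with bleomycin, beside 0.705%. With PBS the mice of the 2 genotypes did not overlap in 11 clusters, 1 higher in KOC and 10 lower, beside 16.3% of all clusters (6.88% higher and 9.37% lower). The 10 lower ones were mostly low-signal clade B and I clusters. The largest difference among them was that of Serpinb3d, which read 4.83, 4.82 and 4.79 in WTC and 4.36, 4.26 and 4.21 in KOC, a value of -0.54 (adjusted p = 0.28 by limma). With bleomycin the genotypes did not overlap in 12 clusters, 5 higher in KOT (Serpinf1, Serpina3b, Serpina9, Serpinb9 and Serping1) and 7 lower (among them Serpinh1, Serpina5 and Serpina11), beside 15.7% (6.92% higher and 8.8% lower). No cluster stood apart in the same direction under both treatments.

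For the difference of the responses between genotypes, 0 of the 53 clusters passed by limma, where 0% of all clusters were called. At an unadjusted p under 0.05 there were 6, beside 5.1%, namely Serpina1 mixed A and B, Serpinb8, Serpinh1, Serpinb3d and Serpinb13. The SE of such a difference was 0.16 in the median serpin cluster.

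The enzymes that serpins act on changed by group. Of the 16 measured genes of plasminogen activation and coagulation, 5 rose and 2 fell in each genotype, with a median of 0.24 in Fra-1+/+ and 0.32 in Fra-1-/- mice. Plau (urokinase) read 7.05, 6.63 and 6.99 in WTC and 8.04, 8.41 and 8.27 in WTT, and rose by 1.35 in Fra-1+/+ and by 1.40 in Fra-1-/- mice. Tissue factor (F3) rose by 0.73 and 0.67 and the serpin clearance receptor Lrp1 by 0.62 and 0.39. Thrombomodulin (Thbd), the endothelial cofactor of protein C activation, fell by 0.80 and 0.76. Endothelial markers moved with it, 4 of 6 falling in Fra-1+/+ (median -0.49) and 5 of 6 in Fra-1-/- mice (median -0.58), with a mean level of 11.25 to 11.39 in WTC, 10.78 to 11.08 in WTT, 11.19 to 11.46 in KOC and 10.74 to 11.05 in KOT, and their part in the Thbd value was not tested. Vitronectin (Vtn), an adhesive glycoprotein of plasma and matrix, fell by 0.60 and 0.99. Plat rose in Fra-1+/+ mice by 0.79, with 0.53 in Fra-1-/- mice (adjusted p = 0.1). Of the 5 cysteine cathepsins, which clade B serpins can block, 4 rose in both genotypes, with Ctss highest at 1.30 and 1.15. Among the 12 leukocyte proteases 0 rose in either genotype, and Gzma fell by 0.76 in Fra-1+/+ mice. Ctsg, Gzmc, Cma1, Mcpt4 and Tpsab1 were at low signal, under 6 in every group mean, so a change in them could be missed. Elane, the neutrophil elastase that antitrypsin inhibits, had responses of -0.07 and -0.10, at group means of only 6.25 to 6.61. In neither comparison of genotypes under the same treatment did any gene of these protease or collagen lists pass. Macrophage and monocyte markers moved with these enzymes, 6 of 9 rising and 1 falling in both genotypes, with a mean level of 9.18 to 9.34 in WTC and 9.86 to 10.41 in WTT. Their part in the responses of the serpins and proteases was not tested.

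**Figure D5:**
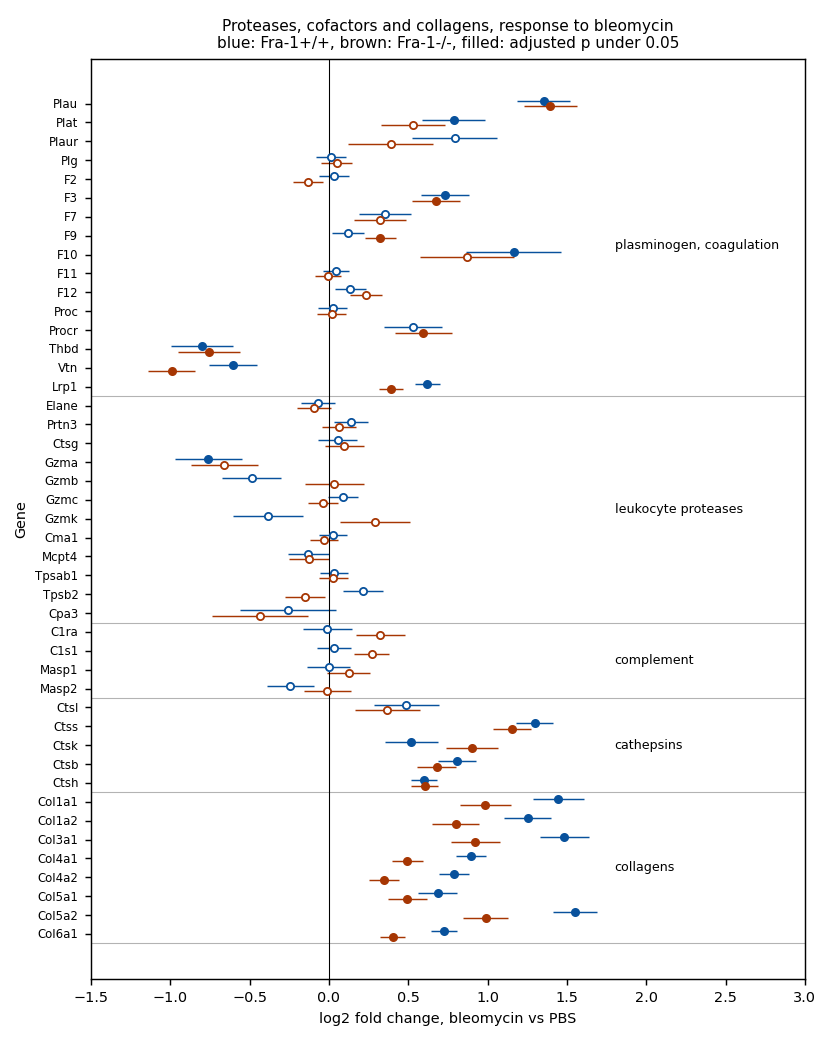
Log2 fold change with bleomycin, with its SE as a bar, for the proteases, cofactors and collagens (rows, grouped by list) in Fra-1+/+ (blue) and Fra-1-/- mice (brown). Filled points have an adjusted p under 0.05 and open points do not. All 8 collagens and 4 of 5 cathepsins are filled in both genotypes, and no leukocyte protease lies to the right with a filled point.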

How the data were processed

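Per the labels and methods, the authors quantile-normalized the raw signals of all arrays together and condensed them to 1 value per transcript cluster with the RMA algorithm of Affymetrix Power Tools (version not given in the sources used here). The deposited values are on the log2 scale, for 35556 clusters. The filter on detection above background was not applied here, and no further normalization was made. All 12 arrays were used, and a separate animal stands behind each. Precision is limited by the number of arrays.

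Clusters were named through the probe table, which gives 23410 of them a symbol. The log2 values of the 12 arrays were fitted in R 4.3.3 by limma 3.58.1 (with statmod 1.5.0), with 1 mean for each group and 8 residual degrees of freedom. All p-values are two-sided and adjusted by Benjamini-Hochberg over the 23410 clusters, and a cluster passed at an adjusted p under 0.05. Intervals are 95%. Comparisons were WTT with WTC, KOT with KOC, KOC with WTC, KOT with WTT, and the difference of the 2 responses. The comparisons with KOC or WTC share mice, so their values stand side by side only. An exact two-sided test of 3 mice against 3 cannot go below 0.1. The local-pooled-error (LPE) test of the study's methods was rewritten in R with 100 bins and a spline of 10 degrees of freedom, and its threshold was an adjusted p of 0.01. A mean level of markers is the mean log2 value over the list. Methods were tested on simulated data.

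Members and gene lists were chosen with earlier results of these data known. Genes named are members past the threshold, those the study's text and listings name, 1 well-known member per family branch, and members apart between genotypes under both treatments. Others named, such as Serpinb3d, Serpinb5 and Serpinb10, were chosen after their values were seen. Promoters were read from RefSeq (GRCm38.p6) with Python 3.11.15.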

Additional observations from a re-analysis of the deposited data

How the results depend on the processing

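Counts and values are given here for 9 alternatives and for leaving out each mouse in turn. In Fra-1+/+ mice the 8 serpin clusters called with bleomycin became 5 by the LPE test, 5 at an adjusted p under 0.01, and 6 to 9 with 1 mouse left out. The 5 were the same clusters as 5 of the 8, all of them higher. In Fra-1-/- mice the 7 became 13 (9 higher and 4 lower, all 7 among them) with array weights, 5 by the LPE test and 5 to 9 with 1 mouse left out. The KOC and WTC count of 0 became 2 by LPE. The other counts stayed at 0, and leaving out a mouse gave 0 to 0 for all comparisons involving genotype. Values near 0 changed sign: KOT minus WTT of Serpina1 mixed A was 0.038 by LPE, 0.023 with array weights, 0.068 with cyclic loess and -0.061 to 0.069 with 1 mouse left out, and that of Serpina1 mixed B was 0.059 by LPE and -0.15 to 0.080. The difference of responses was -0.027 for Serpinb9 and 0.047 for Serpinb9b with array weights. With 1 mouse left out it ran from -0.041 to 0.18 for Serpinb9, -0.19 to 0.23 for Serpinb9b, -0.0042 to 0.28 for Serpina3n and -0.025 to 0.25 for Serpinf1. The calls of Serpina9 and Serpinb9 in Fra-1+/+ mice and of Serpina3b in Fra-1-/- mice were also lost over all clusters of the array and with only the arrays compared (adjusted p of 0.0777, 0.0636 and 0.0568), that of Serpina9 with array weights (0.0605) and trended moderation (0.0624), that of Serpina3b with trended moderation (0.0553), cyclic loess (0.0722) and equal array medians (0.0818), and that of Serpinb2 in Fra-1-/- mice was lost over all clusters (adjusted p = 0.0652) and with cyclic loess (adjusted p = 0.056). The causes were not tested. No paired analysis was possible because the animal numbers are not shared between groups. LPE and a fit to only the arrays compared do not exist for the difference of responses.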
